A study of Caenorhabditis elegans with 6 samples.

Results

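The ttr genes of the nematode Caenorhabditis elegans encode transthyretin-like proteins. They were taken as every gene whose name in the deposited table is ttr followed by a number, apart from ttr-52, which gave 57 genes of the 45292 listed. Expression was measured by RNA sequencing of whole worms in 3 groups, given X-rays from a linear accelerator at a dose of 0 Gy, 200 Gy or 400 Gy (gray, energy absorbed per mass), and each group gave 2 libraries. All groups were young adult hermaphrodites, 24 h past the L4 larval stage, in synchronized populations of about 1000 animals. The labels give no strain, no mutation or transgene and no time between irradiation and harvest. Nor do they state whether the libraries within a group stem from separate cultures. The p-values below therefore rest on the spread between libraries, and that spread may be technical.

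Transthyretin-like proteins form one of the large protein families of nematodes. They are small, carry a signal for secretion and are distantly similar to vertebrate transthyretin, which carries thyroid hormone and retinol-binding protein in blood. The best known C. elegans member, TTR-52, binds phosphatidylserine on the surface of dying cells and links it to the engulfment receptor CED-1. TTR-33 protects dopaminergic neurons from oxidative damage. Roles of the other members are not given here.

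The 57 genes were alike in structure. All were protein coding, with 89 to 406 codons and a median of 143, and 40 of them held 120 to 150 codons. They had 2 to 9 coding exons, with a median of 3. They lay on chromosomes V (22 genes), X (12), IV (10), III (8), I (3) and II (2), and 29 of them stood in 12 groups in which neighbours were at most 10 kb apart. Among these were ttr-3, ttr-2 and ttr-1 on chromosome III, ttr-24, ttr-25 and ttr-26 on chromosome V, and ttr-54 and ttr-53 on chromosome IV. The longest gene, ttr-14, stood apart with 406 codons and 9 coding exons. In 4 tested genes some coding bases lay within exons of another gene: 28.8% of the coding bases of ttr-16 lay within exons of lin-3, 2.2% of those of ttr-47 within H14N18.4, and 1 base each in ttr-7 and ttr-8. Library preparation did not mark strand, so reads of both genes cannot be told apart there. Whether reads of closely similar ttr genes were split or shared was not examined, since no sequence was used here.

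Of the 57 genes 47 had enough counts to be tested among 14417 genes. The other 10 were ttr-9, ttr-11, ttr-13, ttr-19, ttr-22, ttr-28, ttr-55, ttr-56, ttr-57 and ttr-58, and these included all 3 genes on chromosome I. One of them, ttr-19, had 0 counts in every library. The highest count among the 10 was 46, for ttr-22 in the second 200 Gy library, against 3 to 10 in the other 5 libraries. For ttr-58 the 200 Gy libraries held 2 and 13 counts, those of 400 Gy 2 and 8, and those of 0 Gy none. For 7 of these 10 genes the second 200 Gy library alone held the highest count of the 6 libraries. The share of other genes for which this held was not counted.

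The libraries held 9554479 to 12315765 gene counts each. Short and long genes were not represented alike in them, which bears on a family this short. The slope on log2 coding length of a library's log2 deviation from the mean of all 6 was -0.28 and -0.53 for the 200 Gy libraries, 0.42 and 0.28 for those of 400 Gy, and 0.069 and 0.052 for those of 0 Gy. Short genes were thus high in the 200 Gy libraries and low in the 400 Gy libraries. Each result is therefore set beside 703 tested genes of similar coding length (417 to 510.6 bases, the 10th to the 90th percentile of the tested ttr genes) and given again after a length correction, which removed this trend from each library. Since the slopes differed by dose, that correction also takes out any effect of dose shared by genes of like length. The length trend and the dose cannot be told apart here. The tested ttr genes had coding lengths of 393 to 1221 bases with a median of 432, where the median of all tested genes was 1086. Ribosomal RNA genes took 0.696% to 9.26% of the counts, and the larger share fell to the second library at each dose. The 8 oocyte and germline markers checked were all detected in the 6 libraries, as were the 8 sperm markers in at least some.

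In the unirradiated worms a few ttr genes carried most of the signal. On the deposited RPKM scale, in which counts are divided by coding length and library total, ttr-15 (chromosome III, 10337873 to 10339250) was the highest member, with 1963 and 3657 RPKM in the 0 Gy libraries, a mean of 2810.2 ± 1198 (SD, n = 2). It was followed by ttr-51 at 1477 ± 247 RPKM, ttr-2 at 1325 ± 204 RPKM and ttr-16 at 1029.5 ± 296 RPKM. These 4 genes made up 55.8% of the summed RPKM of the family, and at least 98.8% of tested genes lay at or below each of them. Next came ttr-45 at 555 ± 119.96 and ttr-46 at 553 ± 134 RPKM, whose libraries overlapped. The order of ttr-51 and ttr-2 also lay within the spread of their libraries. At the low end of the tested members stood ttr-27 at 3.92 ± 1.71, ttr-29 at 3.72 ± 0.398 and ttr-12 at 1.73 ± 0.185 RPKM. ttr-33, the neuroprotective member, was in the middle of the order at 64.9 ± 28.9 RPKM.

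Across the 6 libraries the family moved largely as a block. In CPM, counts relative to library totals scaled by TMM (trimmed mean of M-values), the 57 genes summed to 3454 and 4941 CPM at 0 Gy, 6695 and 12028 CPM at 200 Gy, and 2069 and 3126 CPM at 400 Gy. Both 200 Gy libraries lay above all others and both 400 Gy libraries below all others. Of the 47 tested genes 43 were highest in the second 200 Gy library and 38 were lowest in the first 400 Gy library. The share of all genes for which this held was not counted. Genes of similar length also had their highest and lowest medians in these libraries. As log2 deviations from the 0 Gy mean these were 1.18 and -0.50, beside 1.62 and -0.89 for the ttr genes. The exceptions at the top were ttr-44, ttr-49 and ttr-50, highest in the second 0 Gy library, and ttr-14, highest in the second 400 Gy library. In bulk RNA, fewer cells of a type and less RNA per cell cannot be told apart.

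**Figure D1:**
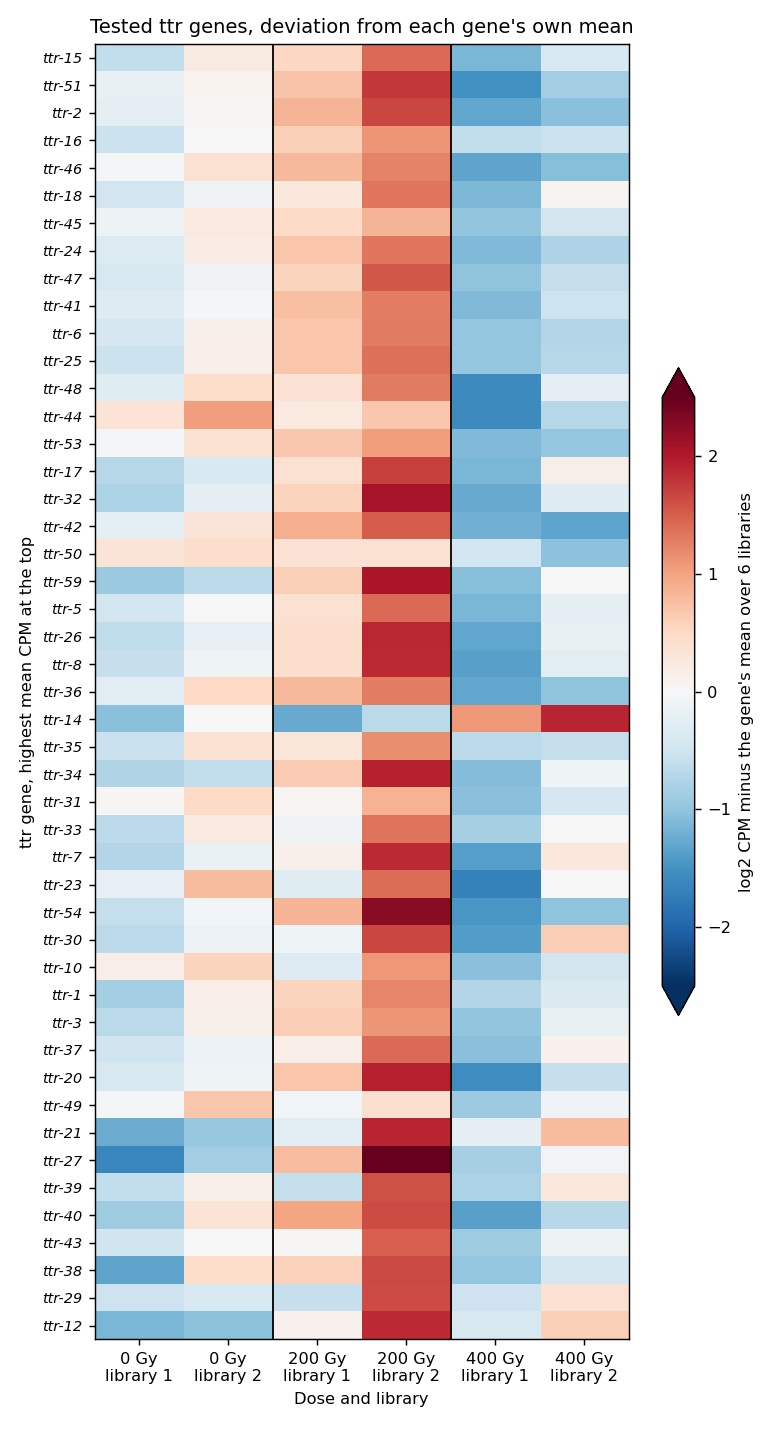
Log2 CPM of the 47 tested ttr genes (rows) in the 6 libraries (columns), each row centred on its own mean, with red above and blue below that mean. The second 200 Gy library is the highest for 43 of 47 genes, and ttr-14 runs against the rest. Genes of similar coding length, not drawn, also had their highest median in that library.

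The first question was whether the family differed between worms given 200 Gy and unirradiated worms. Of the 47 genes 5 rose and 0 fell at the adjusted p threshold of 0.05, by the quasi-likelihood test of edgeR adjusted over all 14417 genes. Of all genes tested 7.03% were called higher and 8.71% lower in this comparison (15.7% in either direction), and the share of the ttr genes called was 10.6%. The 5 genes were ttr-27, ttr-32, ttr-34, ttr-54 and ttr-59, none of which is among the 6 highest members. The log2 fold changes of the family ran from -0.50 to 3.34 with a median of 1.20, and 43 of 47 lay above 0, where the median of all genes was 0.099. Of the 703 genes of similar length 601 lay above 0. With the length correction none of these 5 genes passed, with adjusted p from 0.0636 to 0.148.

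The largest rise was that of ttr-27 (chromosome V, 12903605 to 12904083), with 0.983 and 1.79 CPM at 0 Gy, 5.997 and 22.1 CPM at 200 Gy, and 1.84 and 3.27 CPM at 400 Gy. Both 200 Gy libraries lay above the other 4, and the second held more than the first. Its log2 fold change was 3.34 ± 0.73 (SE; adjusted p = 0.0279), from the lowest level at 0 Gy of the 5. ttr-59 (chromosome X, 7329982 to 7330567) stood at 19.5 and 23.6 CPM at 0 Gy, 55.9 and 152 CPM at 200 Gy, and 17.7 and 37.04 CPM at 400 Gy. The 200 Gy libraries did not overlap with those of 0 Gy or 400 Gy, and the log2 fold change was 2.28 ± 0.55 (adjusted p = 0.0346). Its neighbour ttr-30, on the same strand, had 1.44 ± 0.74 (adjusted p = 0.193).

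ttr-34 (chromosome X, 13139891 to 13140736) had 13.7 and 15.2 CPM at 0 Gy, 36.1 and 88.6 CPM at 200 Gy, and 10.9 and 21.6 CPM at 400 Gy, and its log2 fold change was 2.11 ± 0.51 (adjusted p = 0.0345). ttr-54 (chromosome IV, 10156205 to 10156736) had 8.27 and 12.03 CPM at 0 Gy, 22.7 and 60.7 CPM at 200 Gy, and 4.47 and 6.17 CPM at 400 Gy, with 2.04 ± 0.51 (adjusted p = 0.0372). ttr-32 (chromosome III, 7566572 to 7567428) had 26.7 and 38.8 CPM at 0 Gy, 67.6 and 194 CPM at 200 Gy, and 19.1 and 37.1 CPM at 400 Gy, with 2.00 ± 0.56 (adjusted p = 0.0481). In all 3 genes the 200 Gy libraries lay above the 0 Gy libraries without overlap, and the second 200 Gy library was above the first. The abundant members showed smaller fold changes that did not pass. ttr-2 (chromosome III, 9927769 to 9928955) had 444 and 531 CPM at 0 Gy, 939 and 1661 CPM at 200 Gy, and 209.5 and 252 CPM at 400 Gy, a log2 fold change of 1.42 ± 0.41 with adjusted p = 0.0515. ttr-15 had 649 and 1161 CPM at 0 Gy, 1414 and 2627 CPM at 200 Gy, and 445 and 757 CPM at 400 Gy, with 1.16 ± 0.50 and adjusted p = 0.133. For both genes the 200 Gy libraries lay above the 0 Gy libraries. The low members, ttr-12 and ttr-21, had large estimates, 2.61 ± 0.77 (adjusted p = 0.0552) and 2.36 ± 0.74 (adjusted p = 0.0623), from means of 0.693 and 2.49 CPM at 0 Gy.

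At the other end were ttr-14 (-0.50 ± 0.46, adjusted p = 0.464), ttr-44 (-0.25 ± 0.42, adjusted p = 0.690), ttr-49 (-0.18 ± 0.45, adjusted p = 0.796) and ttr-50 (-0.0067 ± 0.31, adjusted p = 0.989), the 4 members with estimates below 0. Of these ttr-50 had 67.6 and 72.8 CPM at 0 Gy, 69.2 and 70.6 CPM at 200 Gy, and 38.7 and 26.5 CPM at 400 Gy. Its 0 Gy and 200 Gy libraries overlapped, and both 400 Gy libraries were lower. ttr-33, the neuroprotective member, had 16.1 and 29.8 CPM at 0 Gy, 23.99 and 65.5 CPM at 200 Gy, and 14.3 and 25.9 CPM at 400 Gy. The first 200 Gy library lay between the 0 Gy libraries, and the log2 fold change was 0.97 ± 0.55 (adjusted p = 0.232). ttr-33 lies within the longer gene mig-6, with no coding bases in its exons.

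The libraries of 0 and 200 Gy did not overlap for 35 of the 47 ttr genes, all of them higher at 200 Gy, where 33.3% of all genes lay higher and 29.9% lower without overlap. The same held for 462 of the 703 genes of similar length (65.7%), with 57 lower. The number of genes called moved with single libraries, over all genes as well as in the family. With the first 0 Gy library left out edgeR called 0 ttr genes (unadjusted p under 0.05 for 5), and with the second left out also 0 (unadjusted for 27), but these fits called 0% of all genes, so they say nothing of the family. Without the second 200 Gy library 0 ttr genes were called (5 unadjusted) beside 10.5% of all genes, and without the first 32 of 49 beside 30.6%. Leaving out the first or the second 400 Gy library gave 3 ttr genes of 49, beside 8.8% and 10.2% of all genes. The DESeq2 Wald test on all 6 libraries called 17 of the 47 members, all higher (36.2%), where it called 23.1% of all genes, 10.8% higher.

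**Figure D2:**
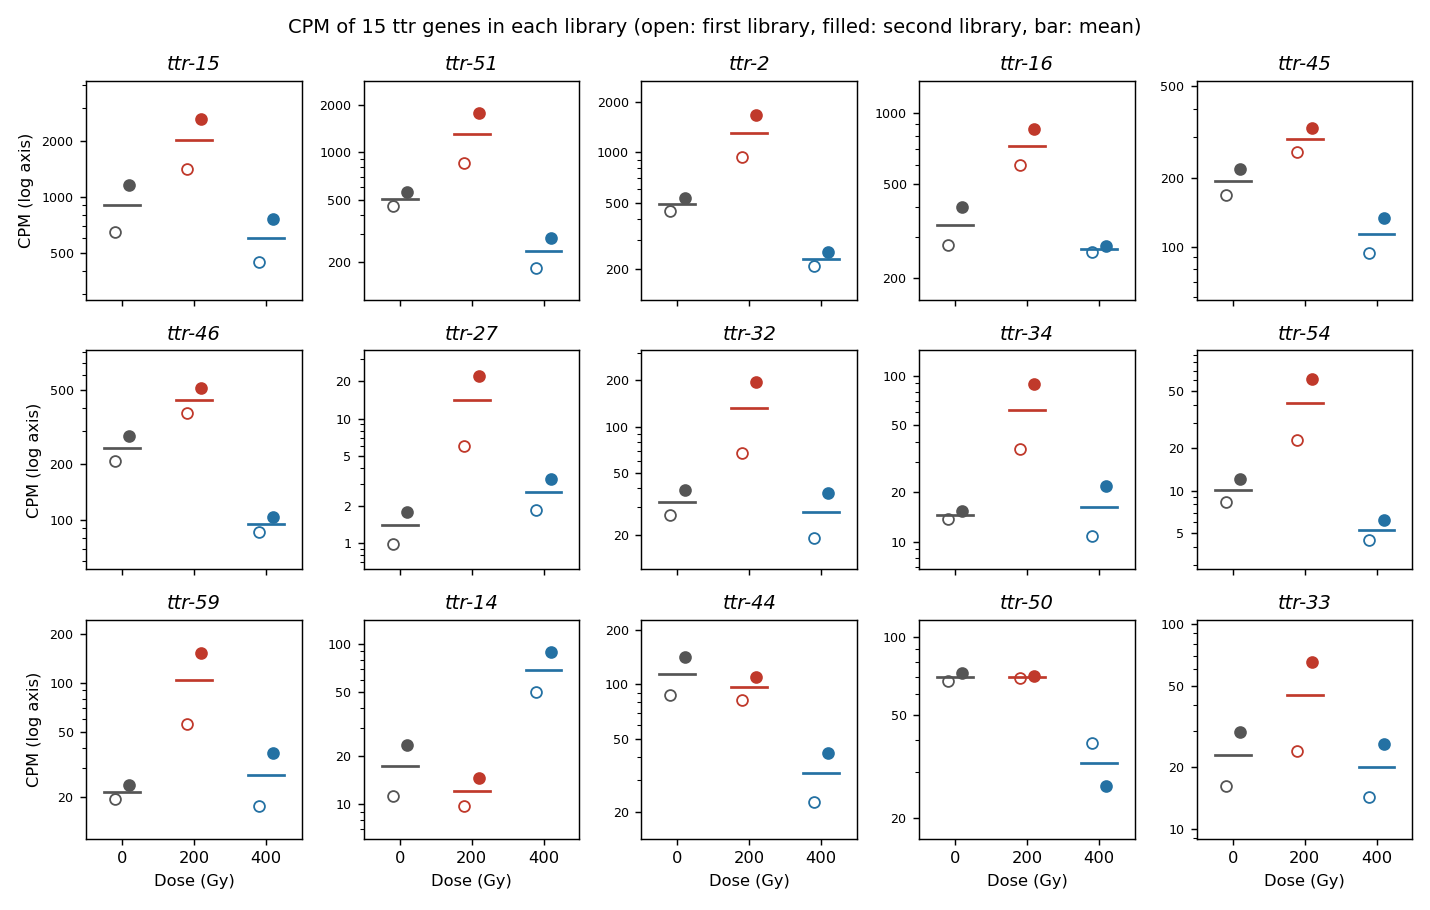
CPM (log axis) of 15 ttr genes by dose in Gy, with open points for the first library, filled points for the second and a bar for the mean of both. The 6 most abundant genes and the 5 called at 200 Gy peak at 200 Gy, whereas ttr-14 is highest at 400 Gy, and the 0 and 200 Gy libraries of ttr-44 and ttr-50 overlap.

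For 400 Gy against 0 Gy, a comparison that shares the 0 Gy libraries with the one above, 0 of 47 ttr genes passed the threshold in edgeR, 10 had an unadjusted p under 0.05, and DESeq2 called 5 (10.6%, beside 9.38% of all genes). In edgeR 0.0486% of all genes were called, 0.0416% higher and 0.00694% lower. The median log2 fold change of the family was -0.54 and 36 of 47 members lay below 0, where all genes had a median of -0.035. The genes of similar length had a median of -0.40, and 505 of these 703 lay below 0. The libraries did not overlap for 21 members that were lower (44.7%) and 4 that were higher (8.51%) at 400 Gy, beside 31.1% and 28.1% of all genes. Those 4 were ttr-12, ttr-14, ttr-21 and ttr-27. Of the 703 genes of similar length 346 (49.2%) were lower and 101 (14.4%) higher without overlap.

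The lowest estimate was that of ttr-44 (chromosome V, 13529738 to 13530740), with 87.6 and 142 CPM at 0 Gy, 82.3 and 110.4 CPM at 200 Gy, and 22.7 and 42.1 CPM at 400 Gy. Both 400 Gy libraries lay below the other 4, and the log2 fold change was -1.82 ± 0.43 (adjusted p = 0.0916). Next were ttr-46 (-1.37 ± 0.37, adjusted p = 0.107), ttr-42 (-1.34 ± 0.36, adjusted p = 0.107) and ttr-36 (-1.32 ± 0.37, adjusted p = 0.113). The highest was that of ttr-14 (2.00 ± 0.47, adjusted p = 0.0902), followed by ttr-21 (1.51 ± 0.73, adjusted p = 0.258) and ttr-12 (1.46 ± 0.78, adjusted p = 0.300). A fit of only the 4 libraries compared called 7 members, ttr-14 higher and ttr-36, ttr-42, ttr-44, ttr-46, ttr-50 and ttr-53 lower, which is 14.9% of the members beside 15.4% of all genes. The count was 8 in the fits without the first or without the second 200 Gy library, 2 higher and 6 lower in each, or 16.3% and 17% of the members tested beside 15% and 16.3% of all genes. These shares are near the background.

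The family had the most calls between the irradiated doses. In 400 Gy against 200 Gy worms 29 of 47 ttr genes fell and 1, ttr-14, rose (edgeR's quasi-likelihood test, adjusted p under 0.05), where 16.2% of all genes were called lower and 15% higher (31.2% in either direction). The median log2 fold change was -1.60 and 46 of 47 members lay below 0, with a median of -0.10 over all genes. Of the 703 genes of similar length 637 lay below 0. With the length correction ttr-14 alone was called. This comparison shares the 200 Gy libraries with the first one.

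The largest fall was that of ttr-54, whose 400 Gy libraries at 4.47 and 6.17 CPM lay below those of both other doses (-2.97 ± 0.53, adjusted p = 0.00667). ttr-42 (chromosome X, 2577751 to 2578212) had 39.9 and 58.7 CPM at 0 Gy, 88.3 and 135 CPM at 200 Gy, and 20.3 and 18.6 CPM at 400 Gy, and fell with a log2 fold change of -2.52 ± 0.37 (adjusted p = 0.00428). Its doses did not overlap, with 200 Gy the highest and 400 Gy the lowest. ttr-51 (chromosome IV, 13250719 to 13252311) had 457 and 556 CPM at 0 Gy, 851 and 1776 CPM at 200 Gy, and 183 and 287 CPM at 400 Gy, with -2.48 ± 0.48 (adjusted p = 0.00845). All 6 of the most abundant members fell. Besides ttr-51 these were ttr-2 (-2.49 ± 0.42, adjusted p = 0.00584), ttr-46 (-2.23 ± 0.38, adjusted p = 0.00579), ttr-15 (-1.75 ± 0.51, adjusted p = 0.0336), ttr-16 (-1.44 ± 0.38, adjusted p = 0.0241) and ttr-45 (-1.38 ± 0.37, adjusted p = 0.0251). So did the 5 genes called at 200 Gy, with log2 fold changes of -2.97 for ttr-54, -2.46 for ttr-27, -2.22 for ttr-32, -1.94 for ttr-34 and -1.93 for ttr-59.

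Further falls were those of ttr-20 (-2.48), ttr-40 (-2.45), ttr-36 (-2.23), ttr-8 (-2.04) and the neighbours ttr-24, ttr-26 and ttr-25 (-1.99, -1.98 and -1.92). The smallest fall past the threshold was that of ttr-50 (-1.10 ± 0.32, adjusted p = 0.0332). Of the 17 members that did not pass, ttr-49 had -0.64 ± 0.45 (adjusted p = 0.311), ttr-21 had -0.85 ± 0.70 (adjusted p = 0.384) and ttr-33 had -1.16 ± 0.55 (adjusted p = 0.143). The libraries did not overlap for 38 members that were lower (80.9%) and 1 that was higher, beside 34.6% and 31.1% of all genes. Of the 703 genes of similar length 493 (70.1%) were lower and 20 higher without overlap. The count of 30 called was 2 without the first 400 Gy library (8.72% of all genes called), 14 without the second (15.7% of all genes) and 16 without the second 200 Gy library (25.6% of all genes).

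ttr-14 (chromosome X, 10787548 to 10789551; coding length 1221 bases) ran the other way. It had 11.2 and 23.3 CPM at 0 Gy, 9.76 and 14.6 CPM at 200 Gy, and 50.01 and 88.7 CPM at 400 Gy, and both 400 Gy libraries lay above the other 4. Its log2 fold change at 400 Gy against 200 Gy was 2.501 ± 0.48 (adjusted p = 0.00820), and 2.55 ± 0.47 (adjusted p = 0.0326) after the length correction, where it was the only ttr gene called. The 1791 tested genes within 10% of its length had a median of -0.062 and a 5th to 95th percentile of -1.40 to 1.62 in this comparison. Among them 1.23% had a value at or above that of ttr-14, and 5.03% were called higher. The gene overlaps vap-2 on the other strand without sharing coding bases with its exons. Of 22 alternative fits 18 called the rise. The exceptions were 4 fits that left out 1 library and also corrected for length. Those fits called almost none of all genes, so they say little of ttr-14. Over the 22 fits its log2 fold change was 2.229 to 2.995.

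The question of how far short length alone accompanies these values was addressed by genes of similar length. At 200 Gy against 0 Gy 151 of these 703 genes were called higher (21.5%) and 5 lower, with a median log2 fold change of 0.99 beside 1.20 for the ttr genes. Among the 385 that also had a similar mean level (5.22 to 256.7 CPM) 115 were called higher (29.9%), beside 10.6% of the ttr genes. For 400 Gy against 200 Gy 319 of the 703 were called lower (45.4%, median -1.34) and 252 of the 385 (65.5%, median -1.50), beside 61.7% of the ttr genes (median -1.60). In both comparisons the ttr medians lay on the same side of 0 as those of other short genes, and in the second the share called was near that of genes of similar length and level.

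**Figure D3:**
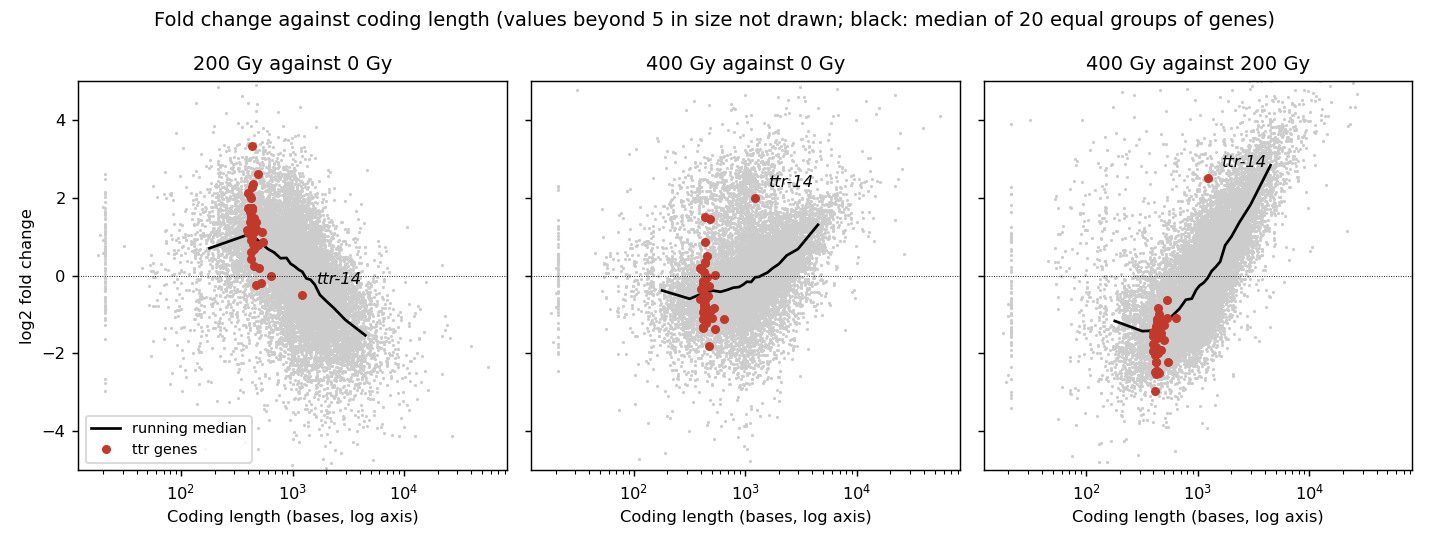
Log2 fold change (y axis) against coding length in bases (log x axis) for all 14417 tested genes in grey, with the 47 ttr genes in red and the running median of all genes as a black line, for the 3 comparisons. Most red points lie at the short end on the same side of 0 as most of the line there. Of the 47 genes 43 lay above 0 at 200 Gy against 0 Gy. Below 0 lay 36 at 400 Gy against 0 Gy and 46 at 400 Gy against 200 Gy. The labelled point is ttr-14, the longest tested member. With the length trend removed, 36 of 47 members lay above 0 at 200 Gy against 0 Gy, beside 429 of the 703 genes of similar length. At 400 Gy against 200 Gy 39 members then lay below 0, beside 408 of the 703.

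After the length correction 0 of 47 ttr genes were called at 200 Gy against 0 Gy in edgeR without a term for the replicate number (7 at an unadjusted p under 0.05, with 0.943% of all genes called higher and 0.867% lower, 1.81% in all), where DESeq2 without the correction called 17. The median was 0.29, beside 0.20 for the genes of similar length and 0.069 for all genes. The 5 genes called before had 2.36 for ttr-27 (adjusted p = 0.0636), 1.33 for ttr-59 (adjusted p = 0.0889), 1.15 for ttr-34 (adjusted p = 0.103), 1.08 for ttr-54 (adjusted p = 0.126) and 1.04 for ttr-32 (adjusted p = 0.148). Between 400 and 200 Gy 0 members were called lower in edgeR (2.65% of all genes lower, 2.16% higher, 4.81% in all), 11 of the 47 had an unadjusted p under 0.05, and DESeq2 without the correction called 34 lower and 1 higher (34.8% of all genes called). The median was -0.43, beside -0.17 for the genes of similar length, -0.31 for those of similar length and level, and -0.016 for all genes. At 400 Gy against 0 Gy the corrected fit called 0 members (9 unadjusted, 0.00694% of all genes called higher and 0.00694% lower, 0.0139% in all), with medians of -0.20 for the ttr genes and -0.057 for the genes of similar length.

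**Figure D4:**
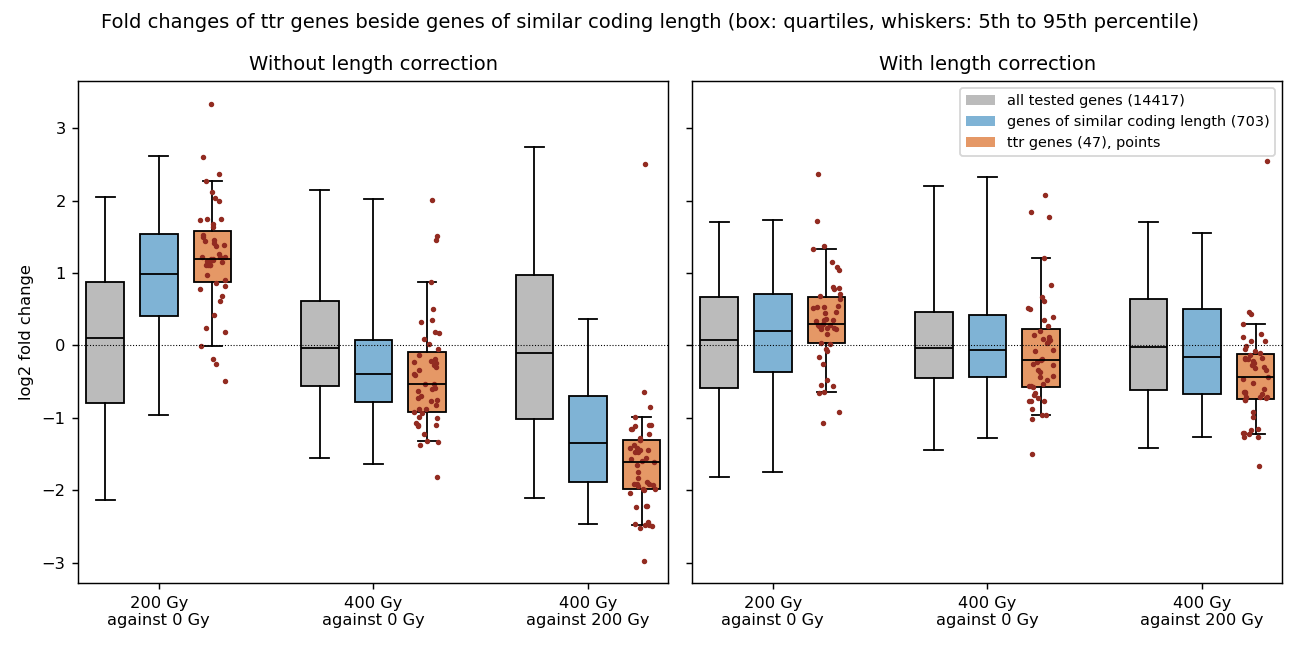
Log2 fold changes of all 14417 tested genes (grey), the 703 genes of similar coding length (blue) and the 47 ttr genes (orange, with points) in the 3 comparisons, without (left) and with (right) the length correction. Boxes give quartiles and whiskers the 5th to 95th percentile, and the offset of the orange and blue boxes from 0 is smaller on the right.

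Within the family, fold changes also varied with level and, in the comparisons with 200 Gy, with length. The 47 members share the same 6 libraries and are not independent replicates. Across them the Spearman correlation with coding length was -0.37 at 200 Gy against 0 Gy and 0.47 at 400 Gy against 200 Gy. Across all genes it was -0.53 and 0.69. At 400 Gy against 0 Gy it was -0.0031, beside 0.39 across all genes. The correlation with mean CPM was -0.28 at 200 Gy against 0 Gy, -0.41 at 400 Gy against 0 Gy and -0.31 at 400 Gy against 200 Gy. Across all genes it was 0.021, 0.078 and -0.0087 in the same order. Neighbouring members did not always have the same values. On chromosome X ttr-36 had -2.23 ± 0.38 at 400 Gy against 200 Gy and ttr-35, on the same strand, -1.44 ± 0.43 (adjusted p = 0.00600 and 0.0364). On chromosome V ttr-40 had -2.45 ± 0.61 (adjusted p = 0.0193) and ttr-49 -0.64 ± 0.45 (adjusted p = 0.311), and the difference between the genes was not tested. On chromosome IV ttr-54 and ttr-53 had 2.04 ± 0.51 and 0.68 ± 0.32 at 200 Gy against 0 Gy (adjusted p = 0.0372 and 0.162).

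The ttr genes also differed between the libraries of one dose. The second library was above the first for 47 of 47 tested members at 0 Gy, 47 at 200 Gy and 45 at 400 Gy, with median log2 differences of 0.51, 1.03 and 0.77. The exceptions at 400 Gy were ttr-50 (-0.54) and ttr-42 (-0.13). At all 3 doses the second library was above the first for 45 of 47 ttr genes (95.7%), beside 39.8% of the 703 genes of similar length, 40% of the 385 of similar length and level, and 31.9% of all 14417 genes. In the genes of similar length the median differences were 0.15, 0.42 and 0.22. Corrected for length the ttr medians were 0.45, 0.50 and 0.55, with the second library above the first for 47, 39 and 42 members. Those of the genes of similar length were then 0.085, -0.081 and 0.040. No test was made of this difference, since the labels do not say what the replicate numbers stand for.

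**Figure D5:**
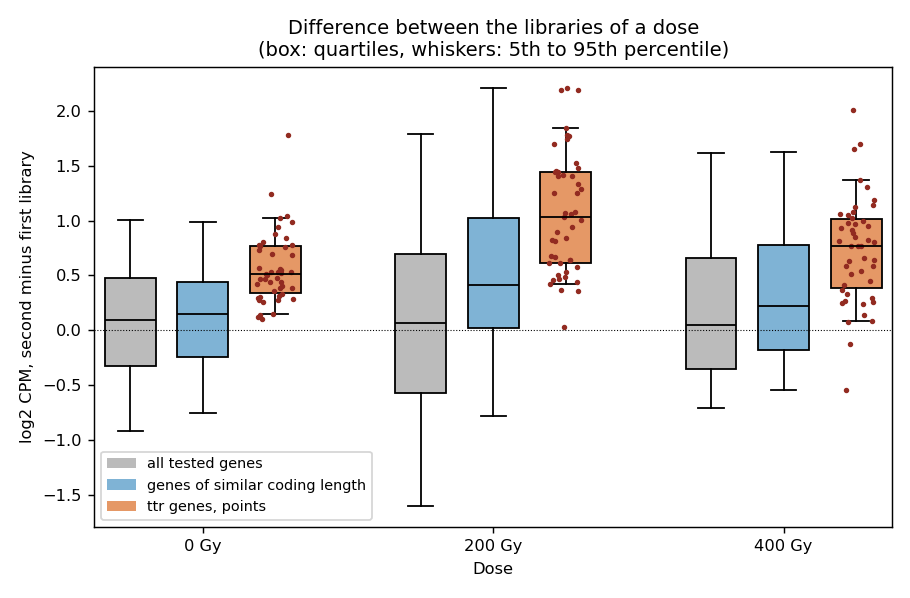
Log2 difference of the second minus the first library at each dose for all 14417 tested genes (grey), the 703 genes of similar coding length (blue) and the 47 ttr genes (orange, with points). Boxes give quartiles and whiskers the 5th to 95th percentile, and the ttr medians of 0.51, 1.03 and 0.77 lie above those of the other sets.

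Some markers of other cell types moved with these differences between libraries. All 8 oocyte and germline markers were lower in the second library at all 3 doses, and none of them at 0. Their summed levels were 4027 and 1442 CPM at 0 Gy, 4806 and 862 CPM at 200 Gy, and 9641 and 4650 CPM at 400 Gy. The share of all genes lower in the second library at all doses was not counted. In the corpse recognition and engulfment list, taken up below, 7 of 11 genes were also lower at all doses. Of the 8 neuronal markers 5 were higher in the second library at all doses, with summed levels of 374 and 444, 424 and 606, and 324 and 409.9 CPM in the same order. In the hypodermis, glia and somatic gonad lists 3 members each were higher in the second library at all doses, of 8, 8 and 7. Of these lists 8, 5 and 7 members had enough counts to be tested, and the share over all tested genes was 31.9%. The summed somatic gonad level was lower in the second library at each dose (314 and 250, 242 and 122, and 1223 and 942 CPM). That of glia was 49.5 and 50.8, 36.7 and 27.4, and 99.1 and 86.1 CPM. The summed level of the hypodermis list, most of it from the adult cuticle collagen col-19, was higher in the second library at 0 Gy (1252 and 1373 CPM) and lower at 200 Gy (4044 and 3767 CPM) and 400 Gy (2483 and 2031 CPM). Of the intestine list 0 of 7 members (6 tested) were higher in the second library at all doses. In the pharynx, body wall muscle, sperm and early embryo lists 1 of 8 each was (6, 8, 8 and 6 tested). No neuronal or hypodermis marker was at 0 in all libraries. The part of these cell types in the ttr values was not tested.

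Genes of corpse recognition and engulfment, the process in which TTR-52 takes part, were set beside the family. The list covers the process and is not limited to partners of TTR-52. ttr-52, the engulfment bridging protein, had 1 to 3 counts in each library and could not be tested. Of the 11 genes of the corpse recognition and engulfment list 10 were tested. At 200 Gy against 0 Gy 3 fell and 0 rose (beside 8.71% and 7.03% of all genes). Those that fell were the transporter gene ced-7 (-2.44 ± 0.41, adjusted p = 0.0216), ced-5 (-2.38 ± 0.39, adjusted p = 0.0213) and ced-12 (-1.32 ± 0.31, adjusted p = 0.0328). The products of ced-5 and ced-12 act upstream of the Rac GTPase CED-10. At 400 Gy against 200 Gy 4 rose and 0 fell (beside 15% and 16.2% of all genes), ced-7 (3.80 ± 0.44, adjusted p = 0.00306), ced-5 (3.80 ± 0.41, adjusted p = 0.00285), ced-12 (1.34 ± 0.31, adjusted p = 0.015) and the dynamin gene dyn-1 (1.54 ± 0.49, adjusted p = 0.0473). After the length correction 0 of the 10 were called by edgeR in any comparison. ced-7 and ced-5 then had -0.92 and -0.85 at 200 Gy against 0 Gy (adjusted p = 0.106 and 0.112) and 0.96 and 0.93 at 400 Gy against 200 Gy (adjusted p = 0.0956 and 0.0912). ced-12 had -0.50 and 0.14 in these comparisons (adjusted p = 0.271 and 0.781), and dyn-1 had 0.12 in the second (adjusted p = 0.845). The receptor gene ced-1 did not pass in any, with -0.48 ± 0.45 at 200 Gy against 0 Gy (adjusted p = 0.464) and 1.03 ± 0.45 at 400 Gy against 200 Gy (adjusted p = 0.115). The gene R09H10.3, one of the hydroxyisourate hydrolases to which transthyretins are related, had 33 and 33.8 CPM at 0 Gy, 83.7 and 98.2 CPM at 200 Gy, and 17.6 and 21.7 CPM at 400 Gy. Like the 5 ttr genes called at 200 Gy it rose at 200 Gy (1.44 ± 0.30, adjusted p = 0.0261) and fell at 400 Gy against 200 Gy (-2.21 ± 0.31, adjusted p = 0.00372), and with the length correction neither value passed (adjusted p = 0.207 and 0.0723). The related ZK697.8 had 0 counts in all libraries.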

How the data were processed

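RNA sequencing of 6 libraries, 2 per dose, was analysed from a table of 45292 genes. The counts and RPKM values were deposited by the authors. The WBcel235 build is named in the submitters' processing notes, as are TopHat2 2.0.13 and bcl2fastq. How reads were counted, with which annotation release and strand setting, is not given in the sources used. Per the labels' protocols, Trizol RNA went into Illumina's TruSeq RNA kit, whose reads carry no strand. The deposited RPKM values follow from the counts, the coding lengths and the library totals within 0.000505%. Positions are those of the table. Structures were read from the Ensembl annotation of the same build, in which all 57 ttr genes were found.

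The counts went into edgeR 4.0.16 (R 4.3.3): filterByExpr, TMM factors (0.751 to 1.24) and the quasi-likelihood test in 1 model over all 6 libraries with 3 residual degrees of freedom, and Benjamini-Hochberg adjustment over 14417 genes. The common biological coefficient of variation was 35.1%. Replicates differed beyond counting noise (chi-square per degree of freedom 64.3, 100.4 and 120.2). Standard errors came from the fold change and its F statistic. The length correction removed, through offsets, a loess trend (span 0.3) of each library's log2 deviation on log2 coding length. Named were genes past the threshold, the 6 highest by RPKM at 0 Gy, the 4 largest rises and falls per comparison and ttr-33, which gave 35 genes. Alternatives were other scalings and filters, the DESeq2 1.42.0 Wald test, single libraries left out, the replicate block, and other thresholds. The steps were run on simulated data with less spread between libraries than here. That run does not show how the calls behave at the spread of these libraries. The members and lists were chosen with earlier results of these data known.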

Additional observations from a re-analysis of the deposited data

How the results depend on the processing

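Results below are numbers of ttr genes past the threshold and medians of their log2 fold changes. At 200 Gy against 0 Gy 5 genes were called with a median of 1.20. DESeq2 size factors gave 8 (17% of members, beside 17% of all genes). The DESeq2 Wald test gave 17 (36.2%, beside 23.1%), and only the 4 libraries compared gave 3 (6.38%, beside 12.7%). At a threshold of 0.01 edgeR called 0 members, with 29 at an unadjusted p under 0.05. It called 0 of all genes there, so that count says nothing of the family. The length correction gave 0 called (beside 1.81% of all genes) and a median of 0.293. Leaving out 1 library gave 0 to 32 called and medians of 0.649 to 1.522, and with the length correction as well 0 to 7 called and medians of 0.104, 0.568, 0.325, 0.093, 0.365 and 0.204 (in the order of the libraries, from the first 0 Gy to the second 400 Gy library). At 400 Gy against 0 Gy, where edgeR called 0, the Wald test called 5 (beside 9.38% of all genes). The 4 libraries compared alone gave 7 (beside 15.4%). Leaving out 1 library gave medians of -0.822 to -0.129, and length-corrected medians of -0.367, 0.154, -0.188, -0.191, -0.044 and -0.431 in the same order. At 400 Gy against 200 Gy 30 genes were called with a median of -1.60. The length correction gave 1 (beside 4.81% of all genes) and a median of -0.43. The threshold of 0.01 gave 10 (beside 1773 of all 14417 genes). Leaving out 1 library gave 2 to 43 called and medians of -1.935 to -1.032, and length-corrected 0 to 2 called and medians of -0.414, -0.397, -0.449, -0.162, -0.327 and -0.611. The difference between the medians of the ttr genes and genes of similar length was 0.21 at 200 Gy against 0 Gy and -0.262 at 400 Gy against 200 Gy. It was 0.703 and -0.952 when all lengths within the range of the ttr genes were allowed. With 1 library left out it was -0.041 to 0.463 in the first comparison, below 0 without the first 0 Gy library and without the second 200 Gy library (-0.003), and -0.608 to -0.096 in the second. At 400 Gy against 0 Gy it was -0.136, and -0.288 to 0.224 with 1 library left out. The upper-quartile scaling kept all 35 calls, the removal of ribosomal RNA genes 30, and the length correction 1.

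The replicate number was not taken as a pairing, since only 2 numbers exist per comparison and the labels do not say what they mark. Differences between the numbered libraries correlated between doses across genes (Pearson's r of 0.479, 0.375 and 0.596). With the replicate block 37, 16 and 42 of 47 ttr genes were called in the order of the comparisons above (78.7%, 34% and 89.4%), beside 44.7%, 24.9% and 53% of all genes. With the replicate block and the length correction together 11 were called (9 higher and 2 lower, among them the 5 called without either), 9 (3 higher and 6 lower) and 19 (1 higher and 18 lower). These were 23.4%, 19.1% and 40.4% of the family, beside 30.3%, 15.4% and 30.4% of all genes, with medians of 0.301 at 200 Gy against 0 Gy and -0.479 at 400 Gy against 200 Gy.

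Single genes turned in direction at 400 Gy against 200 Gy in some fits that left out 1 library and corrected for length. Without the first 200 Gy library the log2 fold changes were 0.002 for ttr-16, 0.081 for ttr-45 and 0.105 for ttr-50. Without the second 200 Gy library they were 0.059 for ttr-35 and 0.002 for ttr-5. Without the second 400 Gy library they were 0.032 for ttr-16, 0.021 for ttr-35 and 0.233 for ttr-50. The cause was not tested.

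The spread between the libraries of a dose, a biological coefficient of variation of 35.1%, limits which fold changes can be called. Members with a mean under 5 CPM (5 of 47) rest on few reads.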
